A study of Mus musculus with 13 samples.

Results

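The replication licensing factors and the MCM helicase are described here by 10 genes: the 6 subunits of the helicase ring (Mcm2, Mcm3, Mcm4, Mcm5, Mcm6 and Mcm7), the loading factors Cdc6 and Cdt1, and the activation factors Cdc45 and Mcm10. They were taken by symbol from 3 deposited tables, which together hold 1592 different gene symbols. Gene expression was measured by RNA sequencing in primary cultures of astrocytes, the main supporting glia of the central nervous system. Tissue was retina and optic nerve, taken from C57BL/6 pups of wild type genotype at 1 to 3 days after birth, and the cultures were kept in medium with serum. There were 13 samples: 3 given HLM006474, 3 given Ro5-3335, 3 given SB431542 and 4 given vehicle, all for 24 h. HLM006474 is known as an E2F inhibitor, Ro5-3335 as an inhibitor of RUNX1 and its partner CBFB, and SB431542 as a blocker of the receptor kinases that pass on TGF-beta and activin signals. Doses, the number of pups behind a culture and whether samples came from separate cultures are not given in the labels, so p-values measure only the spread between these 13 samples, and that spread may be technical.

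Before a cell copies its DNA, the origin recognition complex, CDC6 and CDT1 load rings of the 6 MCM proteins onto replication origins, a step called licensing. CDC45 and the GINS complex then join each ring to form the active helicase, and MCM10 helps to switch it on. The genes of this machinery are classical targets of E2F factors and are transcribed from late G1 into S phase, so their RNA is high in cycling cells and low in resting ones. Mature astrocytes rarely divide, whereas glia from newborn animals divide in culture.

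Each table is the authors' own comparison of a compound with vehicle, and every gene in it has an adjusted p under 0.05 and an absolute log2 fold change of at least 0.58. A gene outside a table therefore changed by less than that or did not pass on p. With HLM006474, 856 of 15169 genes tested were in the table, with Ro5-3335 397 of 13561, and with SB431542 748 of 15169. Values per sample were not analysed here, so the depth of the libraries is unknown and errors are the authors' standard errors (SE). Of 10 astrocyte markers Fabp7 and Kcnj10 are in a table, with mean normalised counts of 18965 and 23892.5 over all libraries in the authors' deposited tables. The cultures also held transcripts of other cells. Lyz2 of macrophages and microglia had a mean count of 24249 and Pdgfra of oligodendrocyte precursors one of 930, in the authors' deposited tables. In bulk RNA, fewer cells of a type and less RNA per cell cannot be told apart.

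HLM006474 lowered all 10 members, Ro5-3335 lowered 8 of them and SB431542 listed 0 of 10. Under HLM006474 their RNA stood between 35.6% and 59.3% of the vehicle level, and under Ro5-3335 the 8 listed members stood between 57.7% and 65.6%, computed from the authors' deposited tables. As background, 4.22% of the genes tested were called lower with HLM006474, 2.32% with Ro5-3335 and 2.64% with SB431542. With a stricter limit, a log2 fold change of at least 1, 6 of 10 members were lower with HLM006474 (Mcm2, Mcm3, Mcm6, Mcm10, Cdc6 and Cdt1), beside 1.38% of genes, and 0 with Ro5-3335, beside 0.494%. No member was higher in any table.

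**Figure D1:**
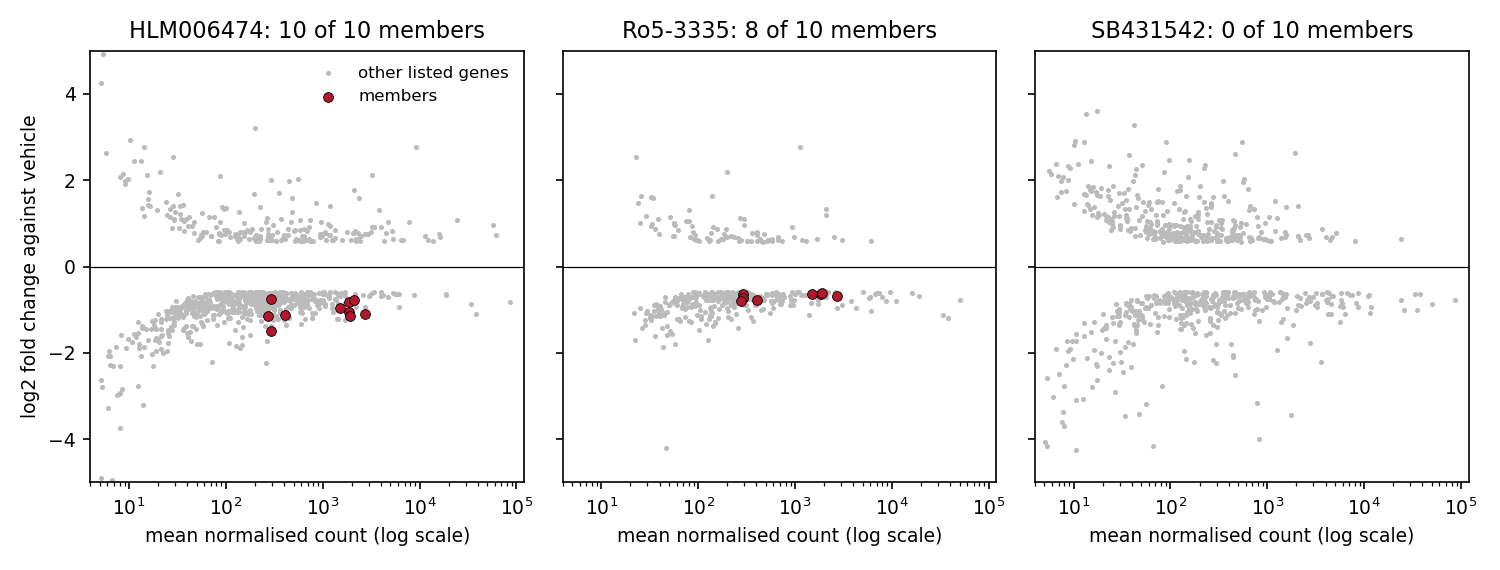
Every listed gene in the authors' deposited tables by mean normalised count over all libraries (horizontal axis, log scale) and log2 fold change against vehicle (vertical axis), with the members in red. The members lie below 0 with HLM006474 (10 of 10) and Ro5-3335 (8 of 10), and 0 of 10 are listed with SB431542. The gap around 0 is the fold limit of the tables, and 1 gene of the HLM006474 table and 7 of the SB431542 table lie outside the axis limits of ±5.

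The RNA levels of the 6 ring subunits lay close together. Divided by the length of their exons in GENCODE M21 protein-coding transcripts, the authors' mean counts gave 436 normalised counts per kb for Mcm5 and 711 for Mcm7, with the other ring subunits between these. The loading and activation factors were lower on this scale of levels. Cdt1, the licensing factor that brings the ring to the origin, stood at 187 counts per kb and Cdc45 at 136. Cdc6, the ATPase that works with the origin recognition complex in loading, stood at 61.4 and Mcm10 at 55.3 counts per kb. These levels are means over all 13 libraries, treated ones included.

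Promoter sequence was compared because E2F factors recognise a short motif, and the rule for the members did not use it. Since genes of this machinery are classical E2F targets, matches among the members were likely beforehand. RefSeq promoters of build GRCm38.p6, from 250 bases before to 50 bases after the start, were matched by symbol for 9 of the 10 members, all but Mcm4. The E2F motif was searched in 4 spellings on both strands, TTTCCCGC, TTTCGCGC, TTTGGCGC and TTTGCCGC, which can overlap each other on opposite strands. At least 1 of them was present in 6 of the 9 members, namely Mcm3, Mcm5, Mcm6, Mcm7, Cdc6 and Cdt1, against 2.60% of 27025 genes with a promoter in the same table. For Mcm2, Mcm10 and Cdc45 these letters are not in this window. The stretches below hold the matches in capitals, and Mcm2 is shown as a ring subunit without any. The Mcm5 stretch lies at chr8:75109309-75109458 on the plus strand, that of Mcm6 at chr1:128359706-128359855 on the minus strand and that of Mcm2 at chr6:88898781-88898880 on the minus strand. The others are short sites at chr1:20820266-20820295 (Mcm3, minus), chr5:138172030-138172059 and chr5:138171849-138171878 (Mcm7, minus), chr11:98908002-98908031 (Cdc6, plus) and chr8:122568036-122568064 (Cdt1, plus).
Mcm5: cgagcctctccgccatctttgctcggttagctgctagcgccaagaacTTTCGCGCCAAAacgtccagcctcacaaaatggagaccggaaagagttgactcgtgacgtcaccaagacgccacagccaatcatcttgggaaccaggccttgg
Mcm6: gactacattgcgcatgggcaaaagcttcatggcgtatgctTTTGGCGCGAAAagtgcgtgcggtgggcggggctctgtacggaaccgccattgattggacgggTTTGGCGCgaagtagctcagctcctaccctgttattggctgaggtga
Mcm2: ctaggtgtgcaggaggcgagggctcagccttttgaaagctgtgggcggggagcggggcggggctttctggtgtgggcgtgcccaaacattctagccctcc
Mcm3: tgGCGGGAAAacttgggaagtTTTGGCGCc
Mcm7, before the start: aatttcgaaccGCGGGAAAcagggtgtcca
Mcm7, after the start: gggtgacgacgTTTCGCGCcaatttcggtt
Cdc6: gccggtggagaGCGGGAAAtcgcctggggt
Cdt1: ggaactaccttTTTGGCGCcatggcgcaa

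In Mcm5 and Mcm6 a pair of matches on opposite strands overlaps to form a run of 12 capitals. The run in Mcm5 lies 153 to 142 bases before the start and that in Mcm6 110 to 99 bases before it. They are the same element read from opposite strands, TTTGGCGCGAAA. It was taken from the Mcm6 promoter after it was seen there, so its presence in members was fixed in advance. It is present in 4 of 27025 genes, Mcm5 and Mcm6 included. Mcm6 has a further match 47 to 40 bases before the start, Cdc6 has its match 138 to 131 bases before the start, and Mcm7 has matches 165 to 158 bases before and 17 to 24 bases after the first of its RefSeq starts. In Mcm3 both matches lie after the start, at bases 20 to 27 and 39 to 46, and in Cdt1 the match lies at bases 33 to 40. In the window that ends at the start matches are in 4 of 9 members (Mcm5, Mcm6, Mcm7 and Cdc6), against 2.16% of genes. The starts are those of RefSeq, and GENCODE M21 has transcripts of Mcm7 and Cdc6 that start further upstream. The Mcm7 stretch before the RefSeq start therefore lies within the first exon of a GENCODE Mcm7 transcript, and the Cdc6 stretch lies in an intron of GENCODE Cdc6 transcripts. The Mcm3 and Cdt1 sites and the other Mcm7 site lie in annotated exons, and the Mcm2, Mcm5 and Mcm6 stretches hold no annotated exon. Motifs of other cell cycle or inhibitor target factors were searched in the same way. The RUNX motif TGTGGT was present in 2 of 9 members, Mcm3 and Mcm10, against 18.9% of all genes, and the CHR motif TTTGAA of late cell cycle genes in 2 of 9, Mcm2 and Cdc45, against 20.2%. A match is a description of these letters and not a measured binding site.

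**Figure D2:**
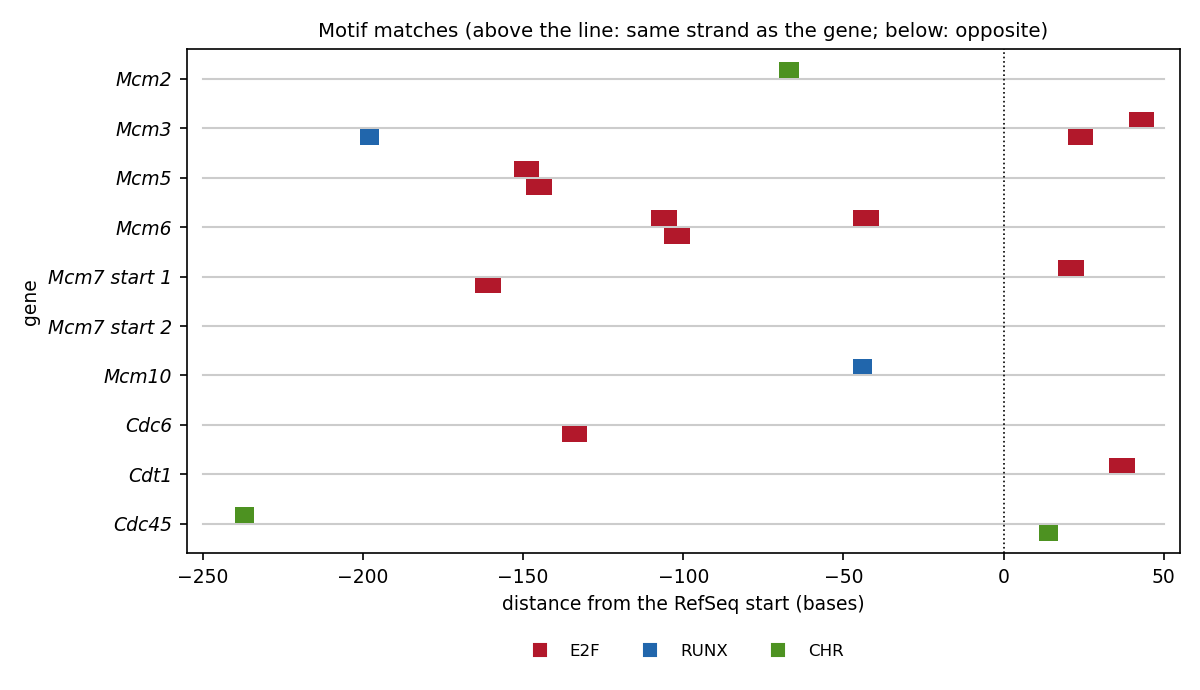
Positions of E2F (red), RUNX (blue) and CHR (green) motif matches by distance from the RefSeq start in bases (horizontal axis) for the 9 members with a promoter, with both RefSeq starts of Mcm7. E2F matches are in 6 of the 9 genes, and overlapping pairs are seen in Mcm5 and Mcm6.

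Under HLM006474 the ring subunits fell together, to between 45.2% and 58.1% of the vehicle level as computed from the authors' deposited table. Mcm2 (chr6:88883474-88898780), which also binds parental histones, changed by -1.05 ± 0.065 on the log2 scale (SE), or 48.4% of vehicle with a 95% interval of 44.3% to 52.8%, in the authors' deposited table (adjusted p = 4.42e-56). Its Wald score of -16.2, the change divided by its SE, was the lowest of the 640 genes called lower in the authors' deposited table. By size of fall it was 181st of the 640 lower genes, so this place reflects a small error as well as a large change.

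Mcm3 (chr1:20802968-20820312) changed by -1.14 ± 0.11 in the authors' deposited table (adjusted p = 2.09e-23). Mcm6 (chr1:128331590-128359664) changed by -1.10 ± 0.11 in the authors' deposited table (adjusted p = 1.39e-20). Mcm5 (chr8:75109569-75128439) changed by -0.95 ± 0.067 in the authors' deposited table (adjusted p = 1.25e-43). MCM2, MCM3, MCM5 and MCM6 sit around the ring with MCM4 and MCM7, whose genes had the smallest falls of the 6. Mcm4 (chr16:15623897-15637400) changed by -0.82 ± 0.061, to 56.7% of vehicle, in the authors' deposited table (adjusted p = 3.75e-38). Mcm7 (chr5:138164583-138172422) changed by -0.78 ± 0.061, to 58.1% of vehicle, in the authors' deposited table (adjusted p = 1.88e-35). The 95% interval of Mcm2, -1.17 to -0.92, did not overlap that of Mcm7, -0.90 to -0.66, and overlapped that of Mcm4, -0.94 to -0.70, in values from the authors' deposited table. Differences between members of a comparison were not tested, since their libraries are the same.

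The loading factors fell too, Cdc6 furthest of all members. Cdc6 (chr11:98907801-98923940) changed by -1.49 ± 0.13 on the log2 scale, or 35.6% of vehicle with a 95% interval of 29.9% to 42.5%, in the authors' deposited table (adjusted p = 4.46e-28). It was 64th by size of fall among the 640 lower genes. Cdt1 (chr8:122568015-122573554) changed by -1.12 ± 0.11, to 46.2% of vehicle, in the authors' deposited table (adjusted p = 8.76e-21).

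The activation factors fell by different amounts, with overlapping intervals. Mcm10 (chr2:4989714-5012791) changed by -1.15 ± 0.18, to 45.1% of vehicle, in the authors' deposited table (adjusted p = 1.40e-08). Cdc45 (chr16:18780447-18811987), the helicase partner that joins the ring at the onset of S phase, had the smallest fall of the 10, -0.75 ± 0.12 or 59.3% of vehicle, in the authors' deposited table (adjusted p = 8.22e-09). Their 95% intervals were -1.51 to -0.79 for Mcm10 and -0.99 to -0.52 for Cdc45, in values from the authors' deposited table. The median over the 10 members was -1.07, beside -0.84 over all 640 genes called lower in the authors' deposited table.

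**Figure D3:**
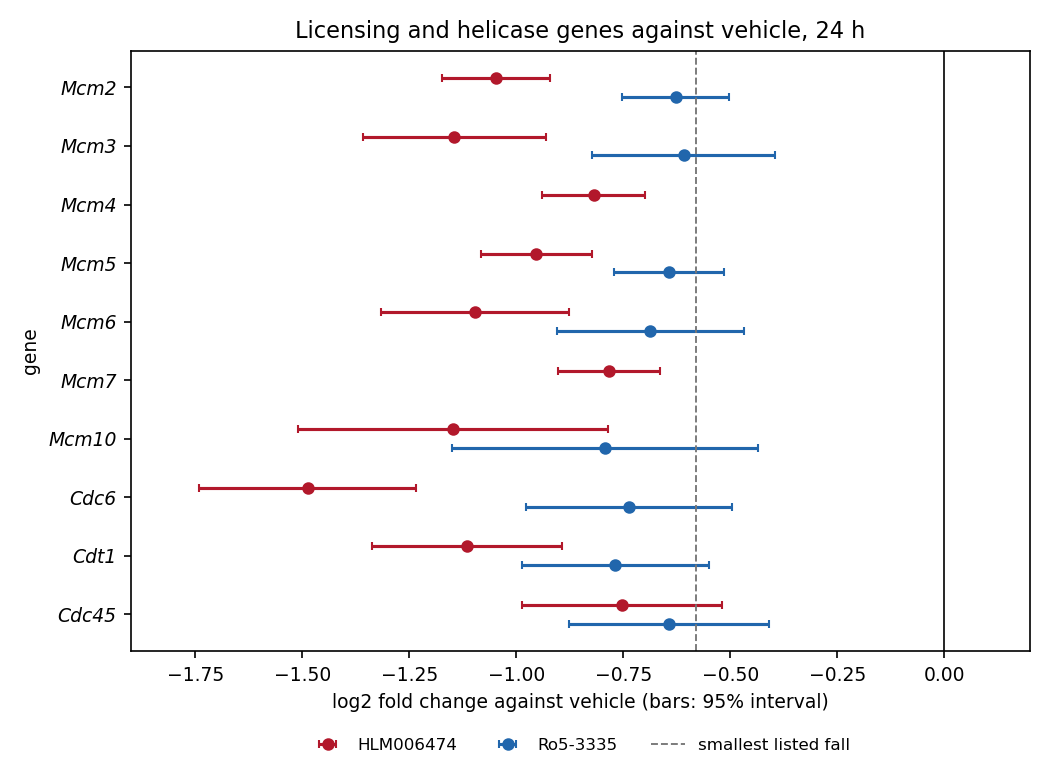
Log2 fold change against vehicle (horizontal axis) with 95% intervals for the 10 members (vertical axis), from the authors' deposited tables, for HLM006474 (red) and Ro5-3335 (blue). All 10 HLM006474 values lie between -1.49 and -0.75, the 8 Ro5-3335 values lie between -0.79 and -0.61, and the dashed line marks the smallest listed fall of 0.58. Mcm4 and Mcm7 have no Ro5-3335 value because that table does not list them.

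The 8 members listed with Ro5-3335 changed by -0.79 to -0.61 on the log2 scale in the authors' deposited table, and the smaller end of that range is set by the fold limit of the table, which leaves out Mcm4 and Mcm7. The loading factors Cdt1 and Cdc6 changed by -0.77 ± 0.11 and -0.74 ± 0.12 on the log2 scale, per the authors' deposited table (adjusted p = 3.13e-10 and 7.74e-08). Mcm10 had the largest fall of the 8, -0.79 ± 0.18, or 57.7% of vehicle, in the authors' deposited table (adjusted p = 0.000217). Cdc45 stood at -0.64 ± 0.12 in the authors' deposited table (adjusted p = 1.90e-06).

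Of the ring subunits 4 of 6 were listed with Ro5-3335. Mcm6 stood at -0.69 ± 0.11, or 62.1% of vehicle, in the authors' deposited table (adjusted p = 3.03e-08). Mcm5 and Mcm2 changed by -0.64 ± 0.066 and -0.63 ± 0.064, per the authors' deposited table (adjusted p = 4.52e-20 and 1.62e-20). Mcm3 stood at -0.61 ± 0.11, or 65.6% of vehicle, in the authors' deposited table (adjusted p = 6.50e-07). All these values lie close to the fold limit of 0.58, Mcm3 by 0.029, so a slightly stricter limit would list fewer members. The median of the 8 listed members was -0.66, beside -0.77 over all 315 genes called lower in the authors' deposited table.

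Mcm4 and Mcm7 are outside the Ro5-3335 table. Their mean counts, 1887 and 2105 in the authors' deposited table for HLM006474, are far above the smallest in the Ro5-3335 table, 21.6, and their errors with HLM006474 were 0.061 each. With such an error the fold limit binds and not the limit on p, so both stood above 66.9% of vehicle if they fell with Ro5-3335. SB431542 shares that limit, and all 10 members are outside its table, so falls of up to 0.58 on the log2 scale are possible for each of them with SB431542. Among all genes tested, those with an adjusted p under 0.05 reached rank 3872 with HLM006474, 2790 with Ro5-3335 and 3148 with SB431542 by the ranks of the listed p-values, so most genes passing on p are outside the tables because of the fold limit.

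The errors differed between members of similar abundance. With HLM006474 the SE was 0.112 for Mcm6 and 0.061 for Mcm7 in the authors' deposited table, although Mcm6 had the higher mean count, 2711 against 2105. The error of Mcm6 was 1.61 times the median of the 38 listed genes within 1.5 times its mean count, that of Mcm3 1.39 times that of 44 such genes and that of Mcm10 1.22 times that of 188. For the other 7 members this ratio was between 0.767 and 0.914. With Ro5-3335 the ratio was 1.42 for Mcm6, 1.34 for Mcm3 and 1.19 for Mcm10. Both comparisons share the vehicle libraries and the fit, so these are not independent. Whether a library stands apart for these genes is unknown.

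**Figure D4:**
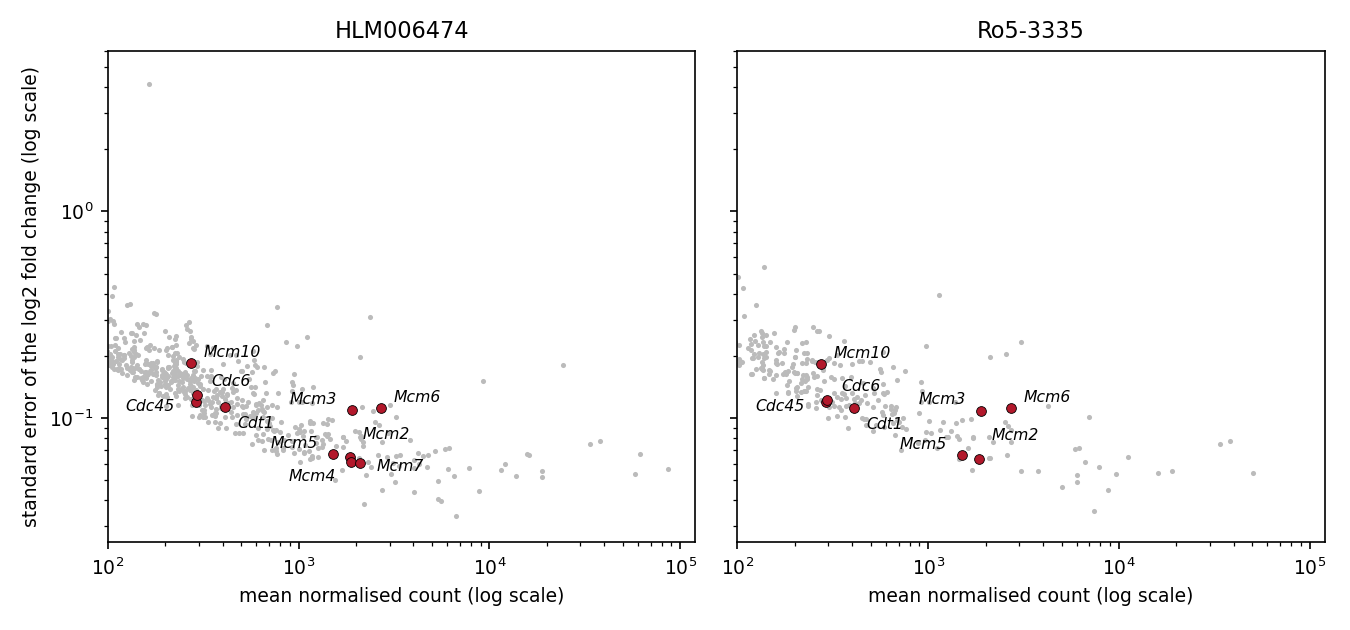
Standard error of the log2 fold change (vertical axis, log scale) against mean normalised count (horizontal axis, log scale) for listed genes of the authors' deposited tables with a mean count over 100, with the members as named red points. Mcm3 and Mcm6 lie above the other ring subunits, at 0.11 in both comparisons.

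The comparison of HLM006474 with Ro5-3335 asks whether the members fell further with the E2F inhibitor than with the RUNX1 inhibitor. The 8 members in both tables all had the lower value with HLM006474, as did 125 of all 210 genes in both tables and 115 of the 176 that were lower in both. Of the 8 members 4 passed the test of the difference. As background, 6.19% of the 210 genes in both tables were called lower with HLM006474 than with Ro5-3335. The difference between the authors' log2 fold changes was tested by z, 2-sided and adjusted over those 210 genes by the method of Benjamini and Hochberg. Doses are not given, so the compounds were matched in time but not in dose.

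Cdc6 differed most, by -0.75 ± 0.18 on the log2 scale (SE), which puts it 40.6% below its level with Ro5-3335 (adjusted p = 0.000911). Mcm2 differed by -0.42 ± 0.091 (adjusted p = 0.000238), Mcm3 by -0.54 ± 0.15 (adjusted p = 0.0121) and Mcm5 by -0.31 ± 0.094 (adjusted p = 0.0152). The members that passed were thus 3 ring subunits and a loading factor.

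Mcm6 differed by -0.41 with a 95% interval of -0.72 to -0.10 (adjusted p = 0.0919), and Cdt1 by -0.35 with an interval of -0.66 to -0.035 (adjusted p = 0.206), and neither passed after adjustment. When the vehicle libraries that both comparisons share were taken out of the error, Mcm6 and Cdt1 passed as well (adjusted p = 0.00587 and 0.0279), which makes 6 of 8 members, beside 10% of the 210 genes. At an adjusted p under 0.01, Mcm2 and Cdc6 passed, beside 1.43% of genes. Mcm10 differed by -0.36 with an interval of -0.87 to 0.15 (adjusted p = 0.567) and Cdc45 by -0.11 with an interval of -0.44 to 0.22 (adjusted p = 0.955). Neither of these shows a difference, and these intervals, which count the shared vehicle libraries as independent, do not exclude one of the size seen for Mcm2. For Cdc45 that holds only with this wider error. Without the shared libraries its SE was 0.128 in place of 0.169, and a difference as large as that of Mcm2 then lies outside its interval. The median difference of the 8 members was -0.38, beside -0.092 over the 176 genes lower in both tables.

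**Figure D5:**
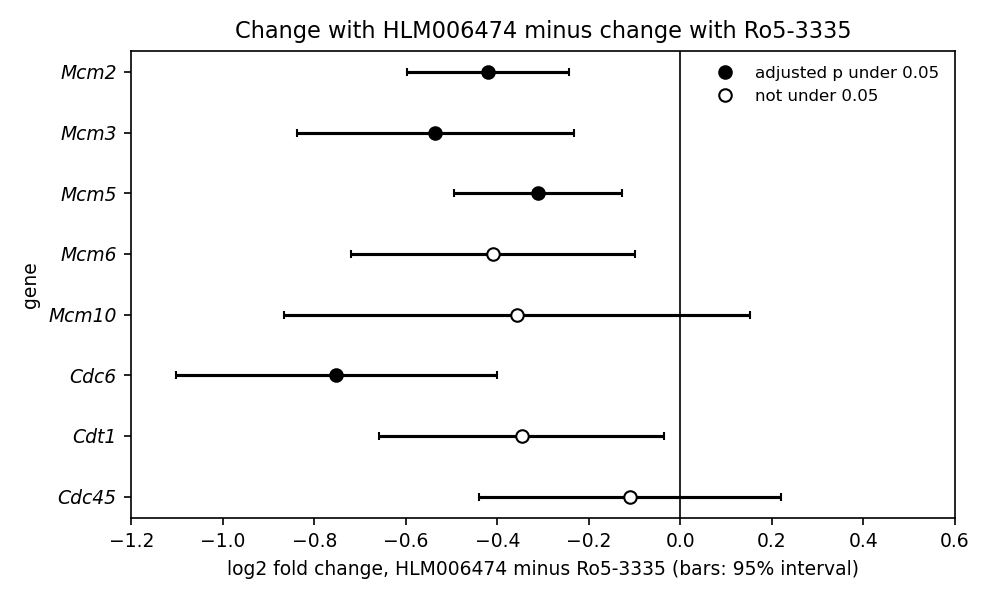
Difference of the log2 fold changes, HLM006474 minus Ro5-3335 (horizontal axis), with 95% intervals, for the 8 members in both tables (vertical axis). All 8 points lie below 0, from -0.75 for Cdc6 to -0.11 for Cdc45, and the 4 filled points have an adjusted p under 0.05.

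For members outside a table, the HLM006474 change was tested against the largest fall that the other table could leave unlisted. Genes entered such a test only by being listed with the first compound, so each already had an absolute log2 fold change of at least 0.58. The p-values and the shares called below take no account of that selection, which makes passing easier. Against the limit of the SB431542 table, 7 of 10 members passed (1-sided z test, Benjamini-Hochberg adjustment over 692 genes), beside 5.2% of those genes. They were Mcm2, Mcm3, Mcm4, Mcm5, Mcm6, Cdc6 and Cdt1, with adjusted p between 1.05e-05 for Mcm2 and 0.0420 for Mcm4. Mcm7, Mcm10 and Cdc45 did not pass (adjusted p = 0.0984, 0.136 and 0.514). Against the limit of the Ro5-3335 table Mcm4 passed (adjusted p = 0.0438) and Mcm7 did not (adjusted p = 0.0966), beside 2.99% of 569 genes. At an adjusted p under 0.01 neither passed, beside 1.23% of genes, and without the shared vehicle libraries in the error both passed (adjusted p = 0.00199 and 0.00940), beside 7.91%. The 8 members listed with Ro5-3335 did not pass against the limit of the SB431542 table (z test, adjusted p = 0.499 for each). As background, 1.32% of 304 genes passed. The 8 values lay only 0.029 to 0.21 beyond that limit, with errors of 0.090 to 0.26, so they could hardly pass. A difference between these compounds was not shown for any member, and this test could hardly have shown one.

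The partners of the members in origin recognition, helicase loading and activation were lower in part. Of 28 such genes 9 were lower with HLM006474, 7 with Ro5-3335 and 0 were listed with SB431542, and none was higher in any table. Over all genes tested, 4.22% were called lower with HLM006474 and 2.32% with Ro5-3335. Of the 6 origin recognition genes only Orc1, a cell cycle regulated subunit, was listed, at -0.87 ± 0.28 with HLM006474 and -0.77 ± 0.28 with Ro5-3335 in the authors' deposited tables. Of the 4 GINS genes, whose products complete the active helicase with CDC45, Gins2 stood at -0.86 ± 0.11 with HLM006474 and -0.62 ± 0.11 with Ro5-3335 in the authors' deposited tables. Gins1 was listed with HLM006474 at -0.72 ± 0.18 in the authors' deposited table.

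Ticrr, which brings CDC45 to the loaded ring, stood at -0.82 ± 0.15 with HLM006474 and -0.64 ± 0.15 with Ro5-3335 in the authors' deposited tables. Ccne2, a cyclin of the G1 to S transition, stood at -0.77 ± 0.16 and -0.74 ± 0.16 in the same order in the authors' deposited tables. Genes that restrain licensing were among those listed. Gmnn, geminin, which binds and inhibits CDT1, was listed with Ro5-3335 at -0.65 ± 0.11 in the authors' deposited table. Dtl, the adaptor that marks CDT1 for destruction, and Fbxo5, an inhibitor of the APC/C, were listed with HLM006474 at -0.78 ± 0.084 and -0.90 ± 0.13 in the authors' deposited table. Mcm8, a relative of the ring subunits that acts in recombination and not in the replicative ring, was listed with Ro5-3335 at -0.58 ± 0.14 in the authors' deposited table. Donson, which acts in helicase activation, was listed with Ro5-3335 at -0.60 ± 0.15 in the authors' deposited table. Wdhd1, a fork protein, and Cdc7, a kinase that phosphorylates the loaded ring, were also listed with HLM006474. Whether a partner listed with 1 compound differs between the compounds was not tested. For the 4 partners in both tables, Orc1, Gins2, Ticrr and Ccne2, the difference between the compounds did not pass (z test, adjusted p between 0.519 and 0.998).

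At the next step of replication, 16 of 27 genes of the clamp, clamp loader, polymerases and fork proteins were lower with HLM006474, 3 with Ro5-3335 and 0 with SB431542. Those listed with Ro5-3335 were Timeless, a fork protection protein, at -0.79 ± 0.10, Pole2, a subunit of polymerase epsilon, at -0.65 ± 0.20, and Rfc5, a clamp loader subunit, at -0.62 ± 0.21, in the authors' deposited table. The members were thus listed in 10 of 10 and 8 of 10 cases with HLM006474 and Ro5-3335. For the fork genes it was 16 of 27 and 3 of 27, and for the partners 9 of 28 and 7 of 28. The partners hold other loading and activation genes. Members and lists were chosen with earlier results of these data known. The contrast between lists may reflect that choice, and it was not tested.

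Some genes of the E2F family were lower themselves with HLM006474, and which of them the compound acts on is not given in the labels. Of 13 E2F, DP and pocket protein genes 3 were lower with HLM006474, namely E2f2, E2f7 and E2f8. In the authors' deposited table E2f8 changed by -1.23 ± 0.13 and E2f7 by -0.75 ± 0.24. With Ro5-3335, only E2f8 of these 13 genes was listed, with a change of -0.89 ± 0.13 in the authors' deposited table. E2F7 and E2F8 repress E2F targets, while E2F2 activates them. Runx1 and Cbfb, the targets of Ro5-3335, are outside all 3 tables, while Runx3 was lower with HLM006474 and with SB431542 and Runx2 with SB431542.

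Among 58 other genes in both the HLM006474 and the Ro5-3335 table, outside the SB431542 table and at least as abundant as the least abundant member, the 5 whose pair of changes lay nearest to the median pair of the 8 members in both tables, -1.11 with HLM006474 and -0.66 with Ro5-3335, were Mki67, Rfc5, Cdca7, Hells and Chaf1b. The distance was Euclidean on the log2 scale over these 2 comparisons and was 0.021 for Mki67, the proliferation marker Ki-67, which stood at -1.11 ± 0.092 with HLM006474 and -0.69 ± 0.092 with Ro5-3335 in the authors' deposited tables. Hells, a chromatin remodeller, stood at -1.21 ± 0.18 and -0.70 ± 0.18 and Chaf1b, a subunit of a histone chaperone that works behind the fork, at -1.22 ± 0.12 and -0.65 ± 0.11, with the compounds in the same order, in the authors' deposited tables. Of the 5 proliferation markers examined, 3 were lower with HLM006474, 4 with Ro5-3335 and 0 with SB431542. Ccna2, cyclin A2, stood at -0.85 ± 0.056 with HLM006474 and -0.73 ± 0.056 with Ro5-3335 in the authors' deposited tables. Cdk1 stood at -0.68 ± 0.098 and -0.62 ± 0.098 in the same order in the authors' deposited tables. Top2a was listed with Ro5-3335 alone, at -0.60 ± 0.046 in the authors' deposited table.

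Markers of other cells moved in the HLM006474 table beside the members. Of 10 oligodendrocyte lineage markers 6 were lower with HLM006474, 0 were listed with Ro5-3335 and 1 was lower with SB431542. Pdgfra and Cspg4 of the dividing precursors stood at -0.84 ± 0.14 and -1.01 ± 0.14 with HLM006474 in the authors' deposited table, and Cspg4 stood at -1.04 ± 0.14 with SB431542, which lists none of the members. Of 12 microglia and macrophage markers 3 were lower and 1 higher with HLM006474, 0 were listed with Ro5-3335, and 4 were lower and 3 higher with SB431542. Of 10 astrocyte markers 1 was lower with each compound, and the other markers were not listed with that compound. The astrocyte marker Fabp7, a protein also of glial progenitors, stood at -0.64 ± 0.055 with HLM006474 and -0.67 ± 0.055 with Ro5-3335 in the authors' deposited tables. Kcnj10 stood at -0.77 ± 0.037 with SB431542 in the authors' deposited table. Of 8 fibroblast and mural cell markers 3 were lower with HLM006474, 1 with Ro5-3335 and 4 with SB431542, of 6 neuron markers 1, 1 and 0 in that order, and of 5 endothelial markers 0 were listed. Cspg4 marks mural cells as well and is counted in both the oligodendrocyte lineage and the fibroblast and mural cell list, with HLM006474 and with SB431542. The part of these cells in the members' falls was not tested.

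Some members share genomic sequence with a neighbour. Exons of Mcm7 overlap those of Cops6 and Ap4m1 on the opposite strand, and exons of Cdc45 overlap those of Ufd1, in GENCODE M21 on build GRCm38. Library strandedness is not given, so reads of these genes may not be told apart, and none of the 3 neighbours is in a table. Mcm7 also hosts the miRNA genes Mir25, Mir93 and Mir106b. Prkdc, a DNA repair kinase gene, starts 466 bases from the start of Mcm4 in the opposite direction and is outside all 3 tables.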

How the data were processed

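The submitters' processing notes name CASAVA 1.8, STAR 2.7, DESeq2 1.30.1 and the genome build GRCm38. For the read counter, annotation and strandedness, the sources used here give nothing. The authors' deposited tables hold, per the file headers, a mean normalised count (a signal averaged over libraries), a log2 fold change against vehicle with its standard error, a Wald score, a p-value and an adjusted p-value. The authors' mean count of each gene is the same in every table that lists it, as 1 fit over all groups would give. The depth is unknown, and precision is given by the standard errors.

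From these, the number of genes tested was recovered as the number that makes the ranks implied by p and adjusted p whole within 0.02, using p of at least 1e-04 (80.5% to 83.6% of ranks whole). Members were counted at the authors' adjusted p. Differences between HLM006474 and Ro5-3335 used a 2-sided z test with the root of the summed squared errors, which counts the shared vehicle libraries as independent. Genes in 1 table were tested against the other table's limit, with the same error assumed for both. No allowance was made for their having passed the fold limit of their own table. Nadk2, on 2 rows, was left out of tests between tables. Analyses used Python 3.11.15, pandas 2.3.3 and SciPy 1.17.1. Members, lists and tests were chosen with earlier results of these data known. Named genes are the members, the listed partners, with values for up to 8 per table by lowest adjusted p, the 5 nearest genes, and examples from the other lists. Alternatives were an adjusted p under 0.01, a log2 change of at least 1, a mean count of at least 100, and an error without the shared vehicle libraries. No count test was possible from these tables.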

Additional observations from a re-analysis of the deposited data

How the results depend on the processing

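At an absolute log2 fold change of at least 1, 6 of the 10 members were listed with HLM006474 (1.38% of genes called lower) and 0 with Ro5-3335 (0.494%). Of the 28 partners 0 were listed with either compound. With an adjusted p under 0.01 as the limit, 2 members differed between HLM006474 and Ro5-3335, beside 1.43% of genes. At that limit 0 of the 2 unlisted members exceeded the limit of the Ro5-3335 table, beside 1.23% of genes. With the shared vehicle libraries taken out of the error both unlisted members, Mcm4 and Mcm7, exceeded it, beside 7.91% of genes. With that error 6 of 8 members differed between the compounds, beside 10% of genes. The causes lie in these settings' own construction: a higher threshold or a smaller error. In all, 22 counts under alternatives stayed within 1.5 times, including the 6 of 8 above and every count with a mean count of at least 100. Among them was also the E2F motif count with the shorter core TTNNCGC, held by 6 of 9 members and 22.6% of genes. Several of the 22 are counts of 0 under a stricter limit, which could not change. No paired analysis was possible because the tables hold no values per sample, and leaving out libraries was not possible for the same reason. The tables give no value for unlisted genes, so falls of the members under about 1.5-fold with SB431542 cannot be seen.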

Other observations

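The element TTTGGCGCGAAA, singled out after its sequence was seen in Mcm5 and Mcm6, is held by 4 genes in the RefSeq promoters. The others are Msh3, a mismatch repair gene outside all 3 tables, and Mycn. Mycn, a transcription factor gene of progenitor cells, stood at -1.28 ± 0.25 with HLM006474 and -0.68 ± 0.24 with SB431542 in the authors' deposited tables.

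Among all listed genes with a RefSeq promoter, at least 1 of the E2F spellings was in 8.50% of 459 genes lower with HLM006474, 9.62% of 239 lower with Ro5-3335 and 2.5% of 280 lower with SB431542. It was in 1.90% of 158 genes higher with HLM006474, 3.28% of 61 higher with Ro5-3335 and 3.54% of 254 higher with SB431542, beside 2.60% of all 27025 genes. Of the 28 partners 21 have a promoter there, and 38.1% of these hold a match. The RUNX motif TGTGGT was in 13.8% of genes lower with Ro5-3335, beside 18.9% of all genes. The genes lower with HLM006474 and with Ro5-3335 include the members and listed partners that have a promoter there. These shares were not tested.

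The partner listed with HLM006474 with the lowest adjusted p was Dtl, at 1.36e-18, and the largest fall among them was that of Wdhd1, a fork protein, at -0.96 ± 0.15, in the authors' deposited table.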
